A study of Drosophila melanogaster with 2 samples.

Results

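Genes of the mitochondrial respiratory chain were examined for peaks of Gug, a transcriptional corepressor of Drosophila also called Grunge or Atrophin. They were all nuclear protein-coding genes of Ensembl release 115 whose symbols begin with ND-, UQCR-, ATPsyn, COX and a digit, or SdhA to SdhD, with Cyt-c-p, Cyt-c-d and levy added by name. The rule gave 90 of the 13945 protein-coding genes on the 6 arms of dm6. Gug was mapped by chromatin immunoprecipitation and sequencing (ChIP-seq) with an antibody to GFP in whole prepupae (1 day) of the fly strain Gug-GFP, which carries an insertion that targets Gug and makes a Gug-eGFP fusion protein. There were 2 biological replicates of this single group. Per the labels the sex was not collected, and possible controls belong to another experiment, which was not analysed here. The samples hold no untagged or differently treated group. The animals were whole, so strong binding in few cells and weak binding in many cannot be told apart.

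The respiratory chain passes electrons from NADH (through complex I, NADH dehydrogenase) and from succinate (through complex II, succinate dehydrogenase) to complex III, the ubiquinol-cytochrome c reductase. The small soluble protein cytochrome c carries them on to complex IV, cytochrome c oxidase, and the proton gradient built on the way drives ATP synthase. The nucleus encodes most of the subunits and the mitochondrial genome the rest, so that nuclear promoters set much of the supply. Drosophila also has copies of many of these genes, with an L at the end of the symbol, and such copies are known for expression in the testis. Cyt-c-p is the cytochrome c gene of most tissues and Cyt-c-d the one needed in the male germline.

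The sequences at 6 of the peaks are shown because they hold the 3 strongest peaks and 3 of the 9 stretches in which a summit lay between diverging starts. The first 3 are the 100 bases on either side of a summit, and the other 3 the bases between a pair of transcript starts that face away from each other. None of these stretches holds an annotated exon. All are read 5′ to 3′ on the strand of the respiratory chain gene from the Release 6 genome (dm6). Capitals mark matches to the motifs named further on. The stretches are chr2L:16716226-16716426 (plus strand) for Cyt-c-d and chr2L:16720773-16720973 (plus strand) for Cyt-c-p. They are chrX:6679274-6679474 (minus strand) for ND-ASHI and chr3R:22027481-22027708 (plus strand) between Cchl and ND-42. The last ones are chr2L:6062758-6062988 (minus strand) between CG13994 and ND-51, and chr3L:12138585-12138867 (minus strand) between RhoGAP68F and ND-SGDH.
Cyt-c-d: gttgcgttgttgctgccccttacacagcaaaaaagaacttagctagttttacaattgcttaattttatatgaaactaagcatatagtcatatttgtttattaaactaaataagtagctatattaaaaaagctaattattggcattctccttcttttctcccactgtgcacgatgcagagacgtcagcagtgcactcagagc
Cyt-c-p: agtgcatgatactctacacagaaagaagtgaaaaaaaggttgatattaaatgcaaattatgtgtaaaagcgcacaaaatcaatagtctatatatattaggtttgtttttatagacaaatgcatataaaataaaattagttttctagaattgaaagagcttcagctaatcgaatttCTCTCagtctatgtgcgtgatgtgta
ND-ASHI: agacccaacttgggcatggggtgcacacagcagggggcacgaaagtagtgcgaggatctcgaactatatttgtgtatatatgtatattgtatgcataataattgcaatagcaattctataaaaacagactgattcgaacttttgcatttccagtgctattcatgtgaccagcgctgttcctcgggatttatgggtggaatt
ND-42: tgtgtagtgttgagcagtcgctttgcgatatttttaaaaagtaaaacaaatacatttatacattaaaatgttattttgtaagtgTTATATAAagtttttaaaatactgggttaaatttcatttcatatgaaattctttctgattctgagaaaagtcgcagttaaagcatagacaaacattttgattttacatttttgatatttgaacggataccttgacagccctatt
ND-51: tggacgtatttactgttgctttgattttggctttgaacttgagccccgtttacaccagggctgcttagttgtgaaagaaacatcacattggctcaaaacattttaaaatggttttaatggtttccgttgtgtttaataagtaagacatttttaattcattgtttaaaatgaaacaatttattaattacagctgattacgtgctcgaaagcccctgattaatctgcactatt
ND-SGDH: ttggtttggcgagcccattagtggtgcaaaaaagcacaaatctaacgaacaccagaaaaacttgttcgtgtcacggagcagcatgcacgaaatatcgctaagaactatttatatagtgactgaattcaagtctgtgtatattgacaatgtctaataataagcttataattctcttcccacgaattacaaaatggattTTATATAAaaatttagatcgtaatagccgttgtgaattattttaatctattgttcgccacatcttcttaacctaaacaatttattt

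A gene was counted as having a peak when a summit of the larger thresholded list of both replicates (5753 peaks, 5750 with a summit on the arms) was at most 1000 bp from 1 of its transcript starts. By that count 16 of the 90 respiratory chain genes had a peak, 17.8%, against 18.9% of all 13945 protein-coding genes. The share was close to the background. It was not tested, because the genes were chosen with earlier results of these data known and the series has 1 condition. The 16 genes carried 21 summits. Signal is the value deposited for each peak, with no stated unit, and its median over these was 109, against 118 for the 2428 summits near any coding start and 112 for all 5750.

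The counts by complex were small. Complex I had a peak at 9 of 40 genes (22.5%), complex II at 1 of 7 (14.3%), complex III at 0 of 9, complex IV at 2 of 17 (11.8%) and ATP synthase at 2 of 15 (13.3%). Both cytochrome c genes had a peak. Without the 25 copies the counts were 9 of 34 for complex I, 1 of 4 for complex II, 0 of 6 for complex III, 2 of 9 for complex IV and 2 of 11 for ATP synthase. Complex III, counted over UQCR- symbols, had no thresholded summit near a start. Its genes under other names are outside this count, and Cyt-c1L, described further on, had one. With counts this small a difference of 1 or 2 genes moves a share widely, and differences between complexes were not tested.

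**Figure D1:**
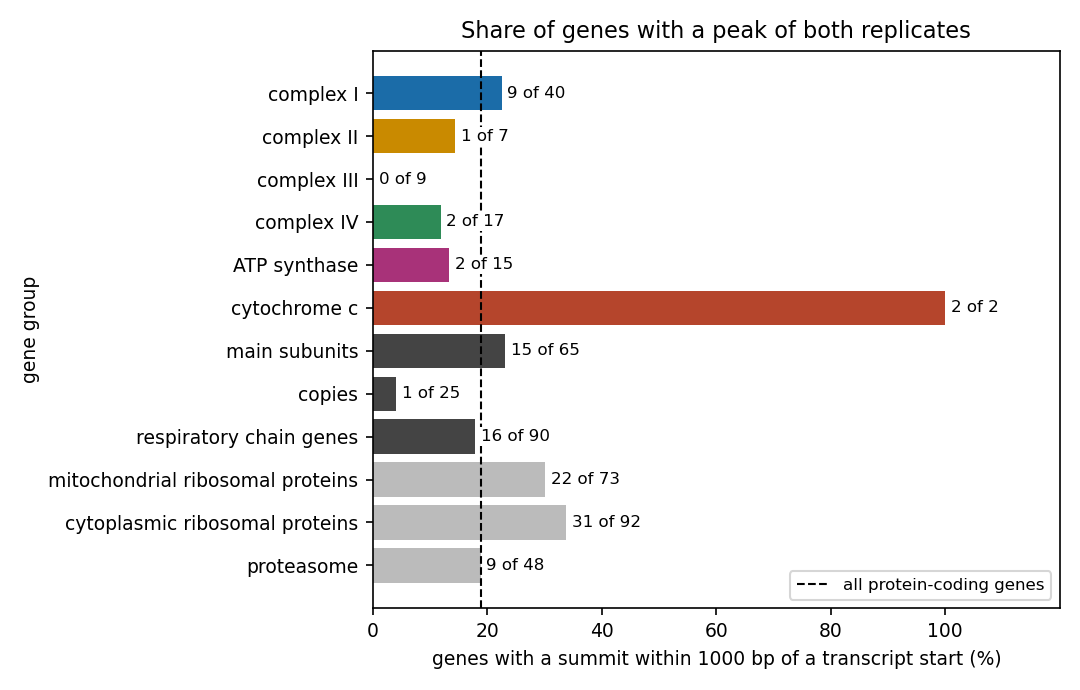
Share of genes in each group with a summit of both replicates within 1000 bp of a transcript start, in percent, with the number of genes printed at each bar. The dashed line is the 18.9% of all protein-coding genes. The bar of the respiratory chain genes (17.8%) sits beside that line, complex III has no bar, and the copies (4%) lie below the main subunits (23.1%).

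The main subunits and the copies had different shares, a difference that was not tested. Of the 65 genes that are not copies, 15 had a peak (23.1%), and of the 25 copies only Cyt-c-d did (4%). The groups also differed in gene shape. The copies had a median length of 0.758 kb and the main subunits 1.18 kb, against 2.17 kb for all coding genes. Of the copies 84% had a single annotated transcript start, against 49.2% of the main subunits and 73.5% of all coding genes. A coding gene faced away from the gene on the opposite strand, with starts at most 500 bp apart, at 3 of the 25 copies and at 37 of the 65 main subunits. Over all coding genes this held for 27.4%. The part of these features in the difference was not tested. Among all coding genes such head-to-head genes had a peak in 31.7% of cases and the others in 14.1%. Among the respiratory chain genes the shares were 27.5% (11 of 40) and 10% (5 of 50).

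Complex I takes electrons from NADH. Its peripheral arm holds the subunits that bind NADH, flavin and iron-sulfur clusters, and most of the other nuclear subunits are accessory. Of the 7 nuclear core subunits, a grouping made after the values were seen, 4 had a peak (ND-75, ND-51, ND-24 and ND-23), and 5 of the 27 other main subunits did. The share over all coding genes was 18.9%, and the difference was not tested. For ND-75 and ND-51 a neighbour's start was nearer to the summit, and the ND-23 peak passed in neither replicate. In mammals the counterparts of ND-75, ND-51 and ND-24 form the module that oxidises NADH.

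The strongest peak of the complex was at ND-ASHI, an accessory subunit. Its signal was 538 in the joint list, with 218 for replicate 1 and 321 for replicate 2 (X, summit 6679374). It ranked 189 among the 5750 summits, and each replicate's thresholded list held it. The summit lay 256 bp before the start of ND-ASHI and 266 bp before the start of Fum1, in an intron of a longer Fum1 transcript. Fum1 encodes fumarase, the citric acid cycle enzyme that uses the product of complex II, and it faces away from ND-ASHI. A second mitochondrial gene was thus almost as near to the summit.

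ND-MWFE, another accessory subunit, had the next signal, 407 over both replicates with 206 and 200.1 in the replicates (2R, summit 13158502). The summit lay 164 bp before its start and 57 bp before a start of TppII, a tripeptidyl peptidase gene on the opposite strand, in a TppII intron. ND-24, the iron-sulfur subunit paired with ND-51, had a signal of 179 with 95.2 and 84.5 (X, 17632209). Its summit lay 112 bp before one of its starts and 162 bp before that of corolla, a synaptonemal complex gene. It was in an intron of ND-24, after the outermost start of that gene. These 2 peaks were in the thresholded lists of both replicates.

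ND-51, the NADH-binding subunit, had 147 over both replicates, with 54.3 in replicate 1 and 88.5 in replicate 2 (2L, 6062887). The peak passed the threshold in replicate 2 but not in replicate 1. The summit lay 130 bp before ND-51 and 102 bp before CG13994. ND-75, the largest iron-sulfur subunit, had 137 with 64.8 and 67.1 (X, 8252480), in the list of each replicate. That summit lay 793 bp before ND-75 and 190 bp before CG1632, so the nearer start was the neighbour's. ND-42 had 109 with 42.5 and 69.4 (3R, 22027564), in the list of each replicate. Its summit, 145 bp before the start of ND-42 and 84 bp before that of Cchl, lay between 2 genes of the same pathway, since Cchl encodes the lyase that attaches haem to cytochrome c.

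The remaining complex I peaks were weaker and less supported. ND-SGDH had summits 36 and 873 bp before its start (3L, 12138620 and 12139457). The nearer had a signal of 93.5 with 35.2 and 59.3 and passed in replicate 2 alone. The farther had 77.0, with 49.5 in replicate 2, and no match among the ranked peaks of replicate 1. ND-MNLL had 83.4 with 40.2 and 45.2 at a summit 835 bp after its start (X, 7892726), which is beyond the end of that short gene. ND-23 had 72.0 with 33.1 and 38.1, 42 bp before its start and 260 bp before that of spn-E, a germline RNA helicase gene (3R, 15837159). The peaks of ND-MNLL and ND-23 passed in neither replicate, and rest on the list of both together.

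Complex II had a single peak, near SdhA, the flavoprotein subunit that oxidises succinate. Its signal was 133, with 58.6 and 74.0 in the replicates (2R, summit 19396894), and it passed in each. The summit lay 923 bp before SdhA but 122 bp before cer, a gene on the same strand for an inhibitor of cysteine proteases. The subunit genes SdhB, SdhC and SdhD had no thresholded summit within 1000 bp. A summit with a signal of 122 lay 1958 bp before SdhC, in the 3′ UTR of Tctp.

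None of the 9 complex III genes with UQCR- symbols had a thresholded summit near a start, in either replicate alone, in the conservative list or in both replicates together. The longer ranked list held peaks that failed the threshold near 6 of them, with top signals from 23.5 (UQCR-14) to 46.9 (UQCR-Q). UQCR-Q encodes a small accessory subunit, and its peak had values of 20.8 and 31.3 in the replicates and an IDR of 0.424. IDR, the irreproducible discovery rate, estimates the share of peaks at least that highly ranked that would not repeat, and every peak in the thresholded list has 0.01 or less. A thresholded summit with a signal of 58.7 lay 1306 bp before UQCR-C2, a core subunit, and 210 bp before the proteasome gene Rpn12.

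The cytochrome c locus held the strongest peaks of the set. Cyt-c-d and Cyt-c-p lie side by side on the plus strand of 2L, and 3 summits fell in the stretch between 16716326 and 16720873. The first was in an intron of Cyt-c-d, 365 bp after a start, with a joint signal of 589.6, and 236 and 358 in replicates 1 and 2. It also lay 131 bp before the start of CG31808 on the opposite strand, the nearer of the 2. The last was in an intron of Cyt-c-p, 941 bp after its start, with a signal of 554 and with 272 and 296 in the replicates. No other coding start lay within 1000 bp of it. They ranked 157 and 179 of 5750, and both passed in each replicate. A weak summit with a signal of 69.8 (28.0 and 42.1) stood 885 bp before Cyt-c-p, inside Cyt-c-d, and passed in neither replicate. No thresholded summit lay within 500 bp of a Cyt-c-p start. Over all genes, a limit of 500 bp left 12 of the 90 with a peak (13.3%), against 15.8% of coding genes.

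Complex IV reduces oxygen. Its strongest peak was at levy, the nuclear gene for subunit VIa, with a signal of 235 over both replicates and 95.7 and 133 in the replicates (2R, summit 23548095). The summit lay 144 bp before levy and 56 bp inside wmd, in the 5′ UTR of that gene. The other was at COX7C, a small membrane subunit, with 61.5 over both and 38.3 and 29.5 in the replicates (2R, 10048615). It passed in replicate 1 and not in replicate 2, and the conservative list did not hold it. The summit lay 262 bp into COX7C, in an intron, and 4 bp into oys on the opposite strand.

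**Figure D2:**
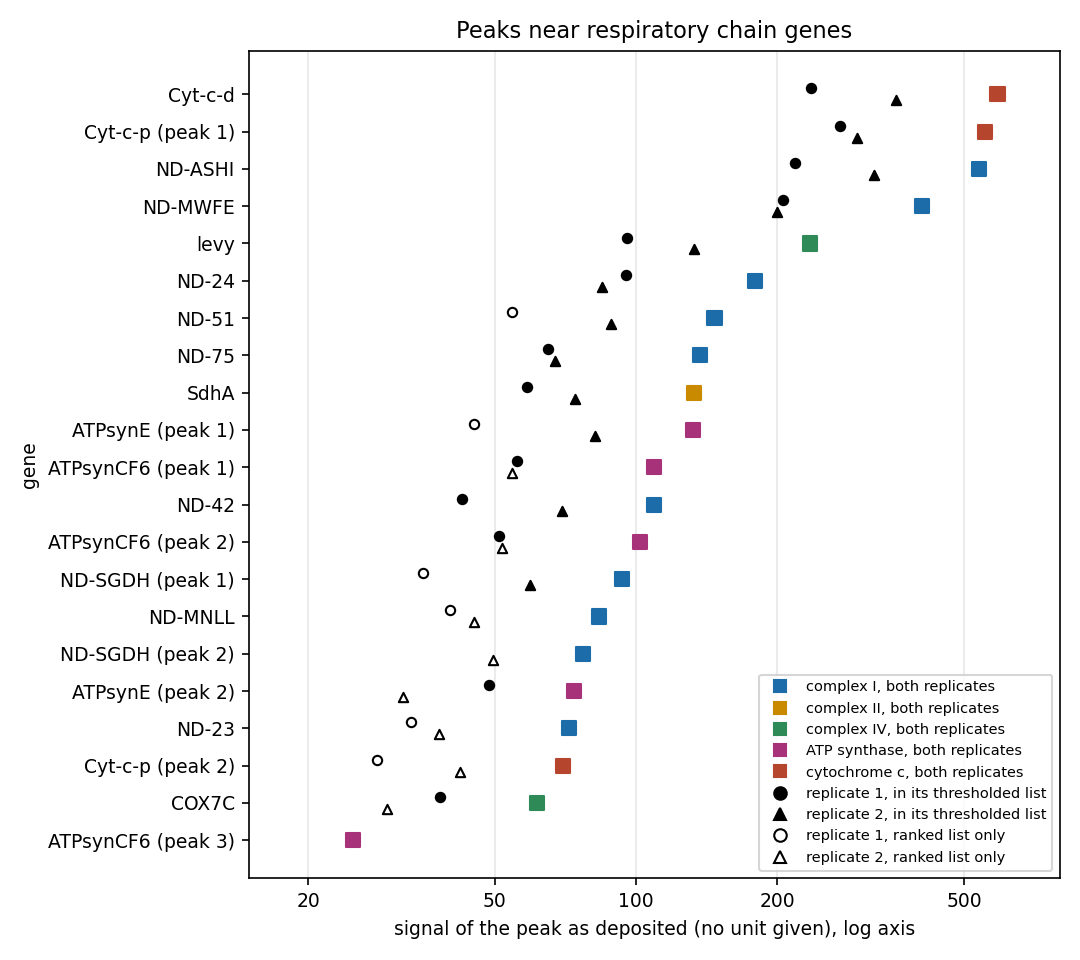
Signal of the 21 peaks near respiratory chain genes as deposited, on a log axis, with 1 row a peak. Squares are the list of both replicates, circles replicate 1 and triangles replicate 2, filled where the peak was in that replicate's thresholded list. The peaks from Cyt-c-d (589.6) down to ND-24 (179) are filled in each replicate, and open symbols gather in the lower rows. The weakest ATPsynCF6 peak (24.9) has no replicate symbol.

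COX7AL2, a copy of the subunit VIIa gene, had a pair of peaks that passed the IDR but are not in the thresholded list. Their signals were 101 (32.0 and 71.0 in the replicates, IDR 0.000796) and 82.0 (27.4 and 69.1, IDR 0.00103), at 618 and 866 bp before starts (2L, 2193628 and 2198778). They belong to the 102 ranked peaks on the arms that have an IDR of 0.01 or less and are absent from the thresholded list. Neither was in the thresholded list of a replicate, and why they are left out is not given in the sources used here.

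ATP synthase uses the gradient. ATPsynE encodes subunit e of the membrane part and had summits 36 bp and 842 bp after its starts (3R, 14326983 and 14327910). The nearer, in its 5′ UTR, had a signal of 73.9 with 48.6 and 31.8 and passed in replicate 1 alone. The farther had 132 with 45.2 and 81.7 and passed in replicate 2 alone, and it lay beyond the gene, 141 bp before spn-B. ATPsynCF6 encodes coupling factor 6 and shares its upstream stretch with Sec13, a coat and nuclear pore protein gene. A summit between the starts, 121 bp before ATPsynCF6 (3R, 23356185), had 102 with 51.0 and 51.8. Another in an intron of Sec13, 956 bp away (23357020), had 109 with 55.9 and 54.4. Both passed in replicate 1 and not in replicate 2, and a weaker summit with a signal of 24.9 had no match among either replicate's ranked peaks. ATPsynF, subunit f, had a summit only in the conservative list, 120 bp before its start and 6 bp before CG3548, with a signal of 52.6 (29.8 and 36.7 in the replicates).

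The beta subunit of ATP synthase had no thresholded peak. ATPsynbeta, the catalytic subunit, and ND-49 of complex I lie on chromosome 4, and neither had even a ranked peak near a start. The alpha subunit gene keeps the symbol blw and so falls outside the rule. Named after its values were seen, blw had a summit 134 bp before its start with a signal of 208, and 80.7 and 121 in the replicates (2R, 22798965), in the list of each.

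The replicates' own lists gave fewer genes. Replicate 1 alone gave a peak at 12 of the 90 genes (13.3%, against 14.3% of coding genes) and replicate 2 alone also at 12 (13.3%, against 14.9%). All of them were among the 16, and 10 genes were in both lists: ND-24, ND-42, ND-75, ND-ASHI, ND-MWFE, SdhA, levy, ATPsynE, Cyt-c-d and Cyt-c-p. At ATPsynE no single summit passed in both replicates, as given above. Of the 21 summits, 9 had a thresholded peak within 100 bp in each replicate, 13 in replicate 1 and 12 in replicate 2, and 5 in neither. The thresholded lists of the replicates were shorter, with 3827 and 4000 peaks against 5753. The same support over all summits is not given here, so these counts have no background beside them. The ranked lists of the replicates held 19 and 20 of them. The conservative list gave 16 genes, against 18.6% of coding genes, with ATPsynF in place of COX7C.

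Most summits lay near another coding start as well. For 16 of the 21 the nearest other coding start was on the opposite strand (76.2%, against 47% of the 3340 pairs of a summit and a coding gene over the genome). For 9 of the 21 the summit was before both starts, between them (42.9% against 35.2%). All 13 summits within 500 bp of a respiratory chain start had such a neighbour on the opposite strand, against 52.4% of the 2549 such pairs over the genome. Only 61.9% of the 21 were that near, against 76.3% over all pairs. The gene set itself was richer in head-to-head genes, 44.4% of the 90 against 27.4% of coding genes. The part of this arrangement in the shares of neighbours was not tested. The respiratory chain gene's own start was the nearest coding start for 8 summits, 1 of them tied. When each summit counted for its nearest coding start alone, 7 of the 90 genes had a peak (7.78%), against 14.1% of coding genes. They were Cyt-c-p, ND-ASHI, ND-24, ND-SGDH, ND-23, ND-MNLL (which shares its start with CG45089) and ATPsynE. This difference from the background was not tested. For the other 9 genes, the neighbours nearer to the summit were CG31808, TppII, wmd, CG13994, CG1632, cer, Sec13, Cchl and oys.

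**Figure D3:**
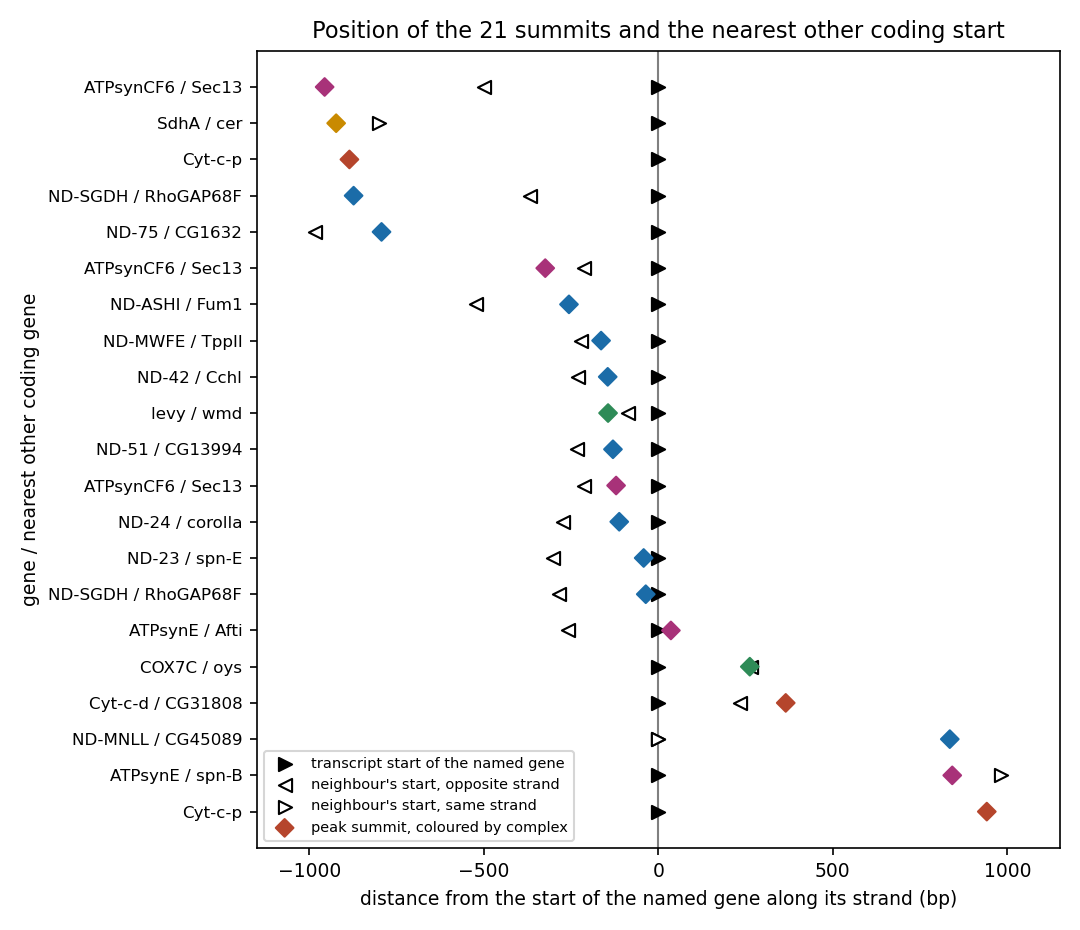
Position of each of the 21 summits (diamonds, coloured by complex as in the plot of signals) in bp from the start of the respiratory chain gene along its strand, with the start of the nearest other coding gene as an open arrow that points along that gene. For 9 summits the diamond sits between a pair of arrows that point away from each other, and 8 summits lie more than 500 bp from the gene's start.

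Beyond the starts, 6 more genes held a summit between 2000 bp upstream and the gene end. Counted in that way 21 of the 90 had one (23.3%), against 25.7% of coding genes, since the summit of ND-MNLL fell outside. ND-39, an accessory subunit of complex I, had summits with signals of 183 and 5.69 at 1517 and 1547 bp from its starts, in an intron. The stronger lay 109 bp before ZnT77C, a zinc transporter gene. ATPsyndelta had one with a signal of 197 at 1715 bp before its start, in an intron of Ypel. ND-15 had one with a signal of 92.7 at 14467 bp after a start, which was 52 bp into CG3164. SdhC and UQCR-C2 are given above, and that of the copy COX7CL is the COX7C summit, 1733 bp away.

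Weaker ranked peaks lay near most of the rest. In the full ranked list 55 of the 90 genes had a summit within 1000 bp (61.1%), against 67.6% of coding genes. For 39 of them only peaks outside the thresholded list were near, with a top signal of 16.3 to 101 and a median of 37.9. Over all members, the highest outside the thresholded list were 78.8 at ND-MNLL in complex I and 36.6 at SdhA in complex II. For the other classes they were 46.9 at UQCR-Q, 53.9 at ATPsynC, and 58.7 at Cyt-c-d. ND-MNLL, SdhA and Cyt-c-d also had a thresholded summit and are not among the 39. In complex IV the highest such peak was the 101 at COX7AL2, and the highest at another gene 66.3 at COX6B. ATPsynC, the ring subunit that turns as protons pass, had 27.0 and 36.2 in the replicates and an IDR of 0.017, just outside the threshold. The other 35 genes, among them 17 of complex I and 8 of complex IV, had no ranked peak near a start.

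Motifs were counted on both strands in the promoters of all coding genes, from 250 bases before to 50 after the outermost start. The letters of motif 1, GGTCACACT, bound by M1BP at many housekeeping genes, were in 16 of the 90 respiratory chain promoters (17.8%), against 6.05% of all 13945. Among the genes with a peak they were in 2 of 16 (ND-MWFE and Cyt-c-p), and among the others in 14 of 74. The DNA replication-related element TATCGATA, bound by Dref, was in 11.1% against 9.36%, with ND-23, ND-MNLL and levy among the genes with a peak. The palindrome known from respiratory genes of Drosophila (any of TTACGTAA and TTATATAA and also of TTACATAA and TTATGTAA) was in 5.56% against 5.18%. It was in 3 of the 16 genes with a peak, ND-42, ND-MNLL and ND-SGDH, and in 2 of the 74 others. The ND-MNLL summit lay beyond the gene end, more than 1000 bp from the outermost start used for its promoter. These splits by peak were not tested, and the shares over all coding genes with and without a peak are not given here. Matches of neighbouring genes that share a promoter are counted for each.

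Matches at the summits were few. Within 100 bp of the 21 summits motif 1 did not occur, and it was at 0.609% of all 5750 summits, so that a count of 0 is near the background. TATCGATA occurred at 2, levy and the nearer ATPsynE summit (9.52% against 1.29%), and the palindrome at 2 (9.52% against 4.21%). A count of 2 is small, and neither difference was tested. The 21 summits were chosen within 1000 bp of a coding start, and only 2428 of the 5750 lay that near to one. The shares over all summits in this paragraph thus cover an unlike set. In the ND-42 sequence printed above, TTATATAA begins at base 85, next to the summit at base 84, and in that of ND-SGDH at base 198, with the summit at base 248. The GAGA letters GAGAG, bound by GAGA factor, were at 3 of the 21 (14.3%, against 24.3% of all summits), and the Cyt-c-p sequence shows them as CTCTC, on the other strand. The core bound by Tailless, a nuclear receptor that recruits Gug, is AAGTCA and was at 2 (9.52% against 9.93%). The sequences of Cyt-c-d, ND-ASHI and ND-51 held none of the motifs. TGCGCA (NRF-1 and Ewg), CACGTG (E-box) and TCAAGGTCA (ERR) were at none of the 21 summits, and at 3.65%, 1.9% and 0.0348% of all summits, so that a count of 0 is near the background. They were in 6.67%, 5.56% and 0% of the 90 promoters against 6.96%, 4.2% and 0.122%. The median GC content of the 21 windows was 30.8%, against 35.3% over all summits. A match is a run of letters and does not show a bound site.

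**Figure D4:**
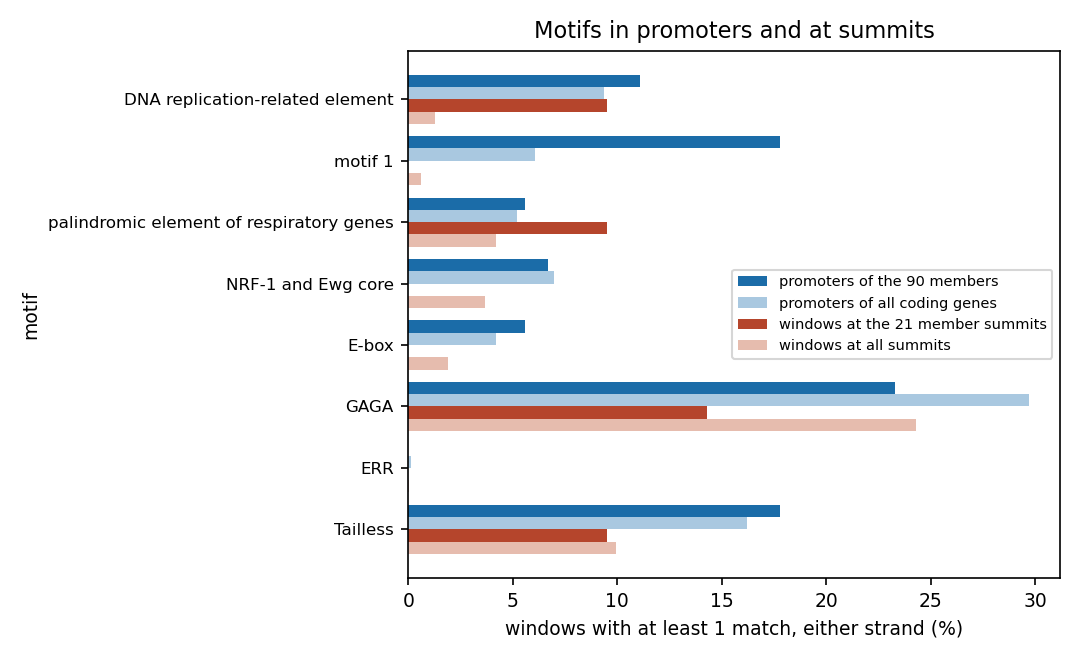
Share of windows with at least 1 match to each motif, in percent, for promoters (250 bases before to 50 after the outermost start; dark blue the 90 respiratory chain genes, light blue all coding genes) and for 100 bp on either side of summits (dark red the 21 summits, light red all 5750). Motif 1 stands at 17.8% of respiratory chain promoters against 6.05% of all. It has no bar at the 21 summits, and with 0.609% over all summits a count of 0 is near the background.

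Genes that work with the chain were counted in the same way, beside the 18.9% of all coding genes with a peak, and without a test. Subunits under other names had a peak at 1 of 7 genes, Cyt-c1L, a copy of the cytochrome c1 gene, with a signal of 104 (50.7 and 53.4 in the replicates) at 683 bp before its start. RFeSP, Cyt-c1, ox, cype and sun, subunits of complexes III and IV and of ATP synthase, had none. Of 10 assembly genes 4 had one, but 15 of the 26 names in that list matched no gene, so the count covers a minority of it. CIA30, a complex I assembly factor, had the highest, 1414 over both replicates with 611 and 800.0, at 144 bp before its start (3R, 29736821), above every peak near a chain subunit. Ttc19, which acts on complex III, had 151 (54.9 and 84.1), Cchl shared the ND-42 peak, and Sirup, an assembly factor of complex II, had 68.0 at 970 bp. The Sirup summit lay in an intron of CG7227, and its peak passed in neither replicate.

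Pyruvate dehydrogenase and the citric acid cycle, which feed NADH and succinate to the chain, had a peak at 6 of 23 genes (26.1%). Beside Fum1 at the ND-ASHI peak, the highest were Idh3g, a subunit of isocitrate dehydrogenase, at 395 (187 and 212), the aconitase gene mAcon1 at 177 (93.0 and 82.1), and Pdhb, a subunit of pyruvate dehydrogenase, at 127 (65.2 and 59.6). The mAcon1 summit lay 110 bp before its start, in 5′ UTRs of CG43345 and CG43346. Genes of other large protein complexes were counted as well. Mitochondrial ribosomal protein genes had a peak at 22 of 73 (30.1%), cytoplasmic ones at 31 of 92 (33.7%) and the proteasome at 9 of 48 (18.8%), beside the 17.8% of the respiratory chain. In replicate 1 alone and in replicate 2 alone the counts were 14 and 14 for mitochondrial ribosomal proteins (19.2% in each). For cytoplasmic ones they were 22 and 18 (23.9% and 19.6%), and for the proteasome 3 and 4 (6.25% and 8.33%). The share was 13.3% in each for the respiratory chain, and 14.3% and 14.9% for all coding genes. No test of these differences was made. No peak lay on the mitochondrial genome, which holds the other 13 protein genes, and the sources used here do not say whether it was searched.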

How the data were processed

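Whole Gug-GFP prepupae gave 2 ChIP-seq replicates, numbered as in the labels. The files list peaks on dm6. The deposited README files name the 2 alignments as sources and leave the further ones undescribed. Aligner, peak caller and read depth are not given in the sources used here, so depth gives no measure of precision. The signal of each peak is deposited by the authors without a unit and served only to order and describe peaks of 1 list. The score in the ranked lists deposited by the authors is the −log10 of the global IDR, as far as its column order and values show.

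Summits on 6 chromosome arms were assigned to genes of Ensembl release 115 (Python 3.11.15, pandas 2.3.3), with positions counted from 1. All peak ends lay within the Release 6 arms. A replicate's value is taken from its ranked peak whose summit is at most 100 bp away. Motifs were searched in the Release 6 sequence. The assignment was tested on simulated data. No statistical test was run: there is 1 condition, and the members and lists were chosen with earlier results of these data known.

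The genes named are those with a summit within 1000 bp of a start in any thresholded list, those with one only elsewhere in the gene, the top peak outside the thresholded list per complex, the neighbours nearest to a summit, and up to 4 genes of each further list. Of 99 names in the 6 further lists 5 matched an older symbol, 18 matched none and were left out, and 2 repeated a gene already listed, so 79 genes remained. COX6B, the core subunits of complex I, sesB, Ant2, TFAM, ewg and srl were named after their values were seen. ND-MNLL ends in L but names a subunit and was kept among the main subunits. Alternatives were other lists, thresholds, distances and assignments.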

Additional observations from a re-analysis of the deposited data

How the results depend on the processing

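The count of 16 genes was 12 in either replicate alone, 13 with an IDR of 0.001 or less, 12 to 22 with limits of 500 and 2000 bp, 15 with the outermost 5′ end, 15 without the copies and 14 without every symbol ending in L, a setting chosen after seeing the data. With an IDR of 0.001 or less the share of the 90 genes was 14.4%, against 14.2% of coding genes. At 2000 bp it was 24.4%, against 24.4%, and with the outermost 5′ end 16.7%, against 16.8%. Of the recounts for the whole set, the complexes and the replicate support, 53 stayed within 1.5 times and 22 moved further. The 53 include recounts of complex III that stayed at 0, and changes from 2 to 3 genes, so they give no measure of stability. With the 1000 strongest peaks the counts were 5 genes in all (5.56%, against 5.11% of coding genes), 2 in complex I, 0 in complex II, 1 in complex IV and 0 in ATP synthase. With the nearest coding start alone they were 7 in all, 5 in complex I, 0 in complex II, 0 in complex IV, 1 in ATP synthase and 1 for cytochrome c. Leaving out a replicate gave 5 to 7 genes in complex I, 1 to 2 in complex IV and 1 to 2 in ATP synthase. Complex II had 0 at 500 bp, and 2 at 2000 bp or over the gene, where complex III had 1. Complex IV had 1 in the conservative list and 1 with an IDR of 0.001 or less, and cytochrome c 1 at 500 bp. The cause of these moves was not tested. The 9 summits found in each replicate were 6 with a limit of 50 bp between summits, and 9 with 200 bp or any overlap. For 6 of 8 motifs the share at summits differed by over 1.5 times from that in promoters. The 21 summit windows were shorter than the 90 promoter windows and fewer, so these shares compare unlike windows. No paired analysis was possible because the labels give a single group. Depth is unknown, so a gene without a peak is not shown to be unbound.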

Other observations

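Genes around the chain that are no subunits also had peaks. Of 6 genes for other electron inputs 3 had a peak near a start: Etfb, a subunit of the electron transfer flavoprotein, at 303 (138 and 175 in the replicates), Dhod, the dihydroorotate dehydrogenase of pyrimidine synthesis, at 154 (70.9 and 81.3), and Etf-QO, which passes electrons to ubiquinone, at 63.0 (21.4 and 14.4), which passed in neither replicate. Of 11 carrier genes 3 did: the uncoupling protein gene Ucp4A at 427 (189 and 246), the dicarboxylate carrier gene Dic1 at 274 (125 and 159), and porin, the channel of the outer membrane, at 114 (45.0 and 66.7). The Dic1 summit lay 142 bp before its start, in an intron of Elp6, and the Dhod summit 18 bp before its start, in an intron of Sys1. The ADP/ATP carrier genes sesB and Ant2 had no peak.

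Of 22 regulators and genes of mitochondrial DNA 6 had a peak (27.3%). Marf, the fly mitofusin, stood highest at 335 (142 and 185), followed by ERR, a nuclear receptor of energy metabolism, at 226 (107 and 117), cnc at 144 and Dref at 103. The TFAM, ewg and srl genes had none. These are counts beside the 18.9% of all coding genes, with no test.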
